A study of Sus scrofa with 70 samples.

Results

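The 10 genes described here encode sperm ion channels of the pig: the CatSper genes CATSPER1, CATSPER2, CATSPER3, CATSPER4, CATSPERB, CATSPERD, CATSPERE and CATSPERG, the CatSper-associated gene EFCAB9, and the potassium channel gene KCNU1. They were chosen by name, and all 10 were found among 35680 genes of the deposited expression table. Tissue of 5 glands was collected, at an age of 12 months, from the Banna mini-pig inbred line (BMI) and the Diannan small-ear pig (DSE), the breed from which BMI was derived by full-sib and parent-offspring mating. Besides testis (Tes) and epididymis (Epi), these were the accessory glands, namely the bulbourethral (BG), the prostate (PG) and the vesicular gland (VG), and no treatment was given. Each breed and gland had 3 RNA-seq libraries and 1 PacBio Iso-seq library of full-length transcripts. BMI is a single inbred line, so an effect of inbreeding and one of the line cannot be told apart. The sources do not say whether the 3 libraries of a group came from separate boars, so p-values measure only the spread between these libraries.

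CatSper is the calcium channel of the sperm tail. Its pore is built from CATSPER1, CATSPER2, CATSPER3 and CATSPER4, and the auxiliary subunits CATSPERB, CATSPERD, CATSPERE and CATSPERG extend outside the membrane. EFCAB9 is a calcium-binding protein on the inner side of the channel. KCNU1 (SLO3) is the potassium channel of mammalian sperm, which opens with rising pH and membrane voltage. Both channels are known from hyperactivated swimming and capacitation, and their genes are transcribed in late male germ cells.

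RNA-seq levels are given in TPM, a unit that scales reads to transcript length and to the library total so that levels can be compared between genes, summed over all transcripts of a gene. TPM keep no record of the number of reads, so no counting error is given for them. Iso-seq was read as the number of full-length reads, with 455023 reads in the BMI testis library, 457778 in the DSE testis library and 231413 to 458697 over the 10 libraries. Markers of testis cells were high under that label: 8 of 8 spermatid genes, 5 of 5 spermatocyte genes, 5 of 5 Leydig cell genes and 3 of 5 Sertoli cell genes were called higher in testis, where 34.5% of all genes tested were, and 1 Sertoli cell gene, SOX9, was called lower. Of the epididymal markers, 5 of 5 were called higher in epididymis than in the accessory glands, where 17.6% of all genes were. BMI epididymis replicate 2 stood apart, with 9677 TPM of LCN8 against 1.51 to 21.2 TPM and 10294 TPM of RNASE10 against 3.09 to 20.1 TPM in the other 5 epididymis libraries, and DSE epididymis replicate 1 had 21.3 TPM of CRISP1 against 1100 to 2759 TPM. Within testis 1 library stood farthest apart. DSE replicate 2 had a summed Leydig marker level of 63514 TPM against 18595 to 32398 TPM in the other 5 testis libraries, a Sertoli sum of 459 against 160 to 260 TPM, a spermatid sum of 25910 against 77619 to 118319 TPM and a spermatocyte sum of 114 against 294 to 476 TPM.

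The sequences that carry the isoform results are shown first, 5′ to 3′ on the gene's own strand, from the Sscrofa11.1 genome. In CATSPER1 a GT inside exon 4 and the usual GT at its end, both in capitals, served as alternative donors (chr2:6316031-6316112, plus strand).
CATSPER1 exon 4 end: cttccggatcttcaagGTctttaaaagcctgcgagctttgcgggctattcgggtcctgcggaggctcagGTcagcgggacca
The stretch between both donors has 53 bases, which leaves a remainder of 2 after division by 3. The transcript of CATSPER1 listed in epididymis uses another donor after exon 1, the GC in capitals, in place of the GT in capitals (chr2:6314014-6314168, plus strand).
CATSPER1 exon 1 end: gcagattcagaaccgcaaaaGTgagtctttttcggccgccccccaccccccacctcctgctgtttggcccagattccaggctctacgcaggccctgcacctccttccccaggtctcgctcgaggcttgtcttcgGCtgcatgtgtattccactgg
Further exons are shown because Iso-seq reads and gene models treat them differently, with the exon in capitals and 10 intron bases on each side in lower case. They are in CATSPER2 (chr1:127822129-127822248, plus strand), CATSPERD (chr2:73220324-73220396, minus strand) and CATSPERG (chr6:47270542-47270673, plus strand).
CATSPER2 100-base exon: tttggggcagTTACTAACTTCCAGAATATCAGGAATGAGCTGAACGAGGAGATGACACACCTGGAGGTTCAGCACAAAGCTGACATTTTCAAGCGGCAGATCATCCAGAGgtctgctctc
CATSPERD 53-base exon: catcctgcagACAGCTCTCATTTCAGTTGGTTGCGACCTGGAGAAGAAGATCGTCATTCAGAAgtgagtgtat
CATSPERG 112-base exon: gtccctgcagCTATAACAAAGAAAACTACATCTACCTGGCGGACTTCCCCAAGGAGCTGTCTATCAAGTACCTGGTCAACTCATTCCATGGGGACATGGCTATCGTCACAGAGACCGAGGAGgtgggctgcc
A last CATSPERG exon is shown because its share of TPM did not overlap between the breeds in testis (chr6:47267395-47267534, plus strand).
CATSPERG 120-base exon: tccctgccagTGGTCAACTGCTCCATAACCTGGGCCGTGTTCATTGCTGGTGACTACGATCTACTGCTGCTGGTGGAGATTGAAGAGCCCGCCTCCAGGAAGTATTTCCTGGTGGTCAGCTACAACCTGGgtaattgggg
The last intron of KCNU1 begins with GG and ends with AG, in capitals (chr15:49320227-49320276 and chr15:49317657-49317706, minus strand).
KCNU1 last intron start: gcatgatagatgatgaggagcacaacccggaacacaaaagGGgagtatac
KCNU1 last intron end: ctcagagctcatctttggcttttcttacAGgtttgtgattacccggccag

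All 10 genes were detected in each of the 6 testis libraries, and their mean levels ranged from 6.53 TPM for CATSPERE to 117 TPM for CATSPERG. Of the pore genes, CATSPER2 (chr1:127814376-127829109) was the highest. Its levels were 71.7, 79.4 and 75.5 TPM in BMI replicates 1 to 3 and 76.1, 26.5 and 72.7 TPM in DSE replicates 1 to 3, a mean of 67.0 ± 20.01 TPM (SD, n = 6). CATSPER1 (chr2:6312906-6321690) stood at 47.5, 40.3 and 69.0 TPM in BMI and at 14.6, 12.6 and 38.7 TPM in DSE (37.1 ± 21.2 TPM, SD, n = 6). CATSPER1 was below CATSPER2 in all 6 libraries, and its levels in BMI and DSE did not overlap. CATSPER3 (chr2:137139749-137175305) stood at 27.4, 21.5 and 37.9 TPM in BMI and 9.48, 5.39 and 15.9 TPM in DSE, again without overlap. CATSPER4 (chr6:83609349-83627855) was the lowest pore gene, with 11.3, 7.31 and 12.5 TPM in BMI and 3.89, 3.43 and 8.52 TPM in DSE. The 4 pore subunits, which share 1 channel, were therefore listed at unequal RNA levels, with a ratio of CATSPER2 to CATSPER4 of 6.05 to 10.9 in 5 libraries and of 19.5 in DSE replicate 1.

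Among the auxiliary subunits CATSPERG (chr6:47251964-47282829) was the highest of the 10 genes in all 6 libraries, with 146, 148 and 136 TPM in BMI and 127, 37.4 and 108 TPM in DSE. CATSPERD (chr2:73207273-73265866) was at 33.3, 38.7 and 32.7 TPM in BMI and at 52.3, 9.74 and 31.6 TPM in DSE. CATSPERB (chr7:113201004-113297405) was at 17.7, 21.9 and 16.6 TPM in BMI and at 24.4, 7.81 and 20.8 TPM in DSE. For both genes DSE replicate 1 was the highest and DSE replicate 2 the lowest of the 6 libraries. CATSPERE (chr10:17282939-17355061) followed the same order of libraries at its ends, with 9.61 TPM in DSE replicate 1, 2.52 TPM in DSE replicate 2 and 5.03 to 8.25 TPM in the others.

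EFCAB9 (chr16:51987768-52007563) had 97.3, 104 and 131 TPM in BMI and 31.8, 29.2 and 68.2 TPM in DSE, and the breeds did not overlap. KCNU1 (chr15:49316673-49444385) had 13.7, 15.0 and 13.8 TPM in BMI and 5.62, 3.08 and 12.4 TPM in DSE, also without overlap. In the order of the means, CATSPERG, EFCAB9, CATSPER2, CATSPER1, CATSPERD, CATSPER3, CATSPERB, KCNU1, CATSPER4 and CATSPERE, a gene was above the next one in all 6 libraries only for CATSPERG over EFCAB9, CATSPER2 over CATSPER1 and CATSPERB over KCNU1. The other neighbours changed places between libraries.

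**Figure D1:**
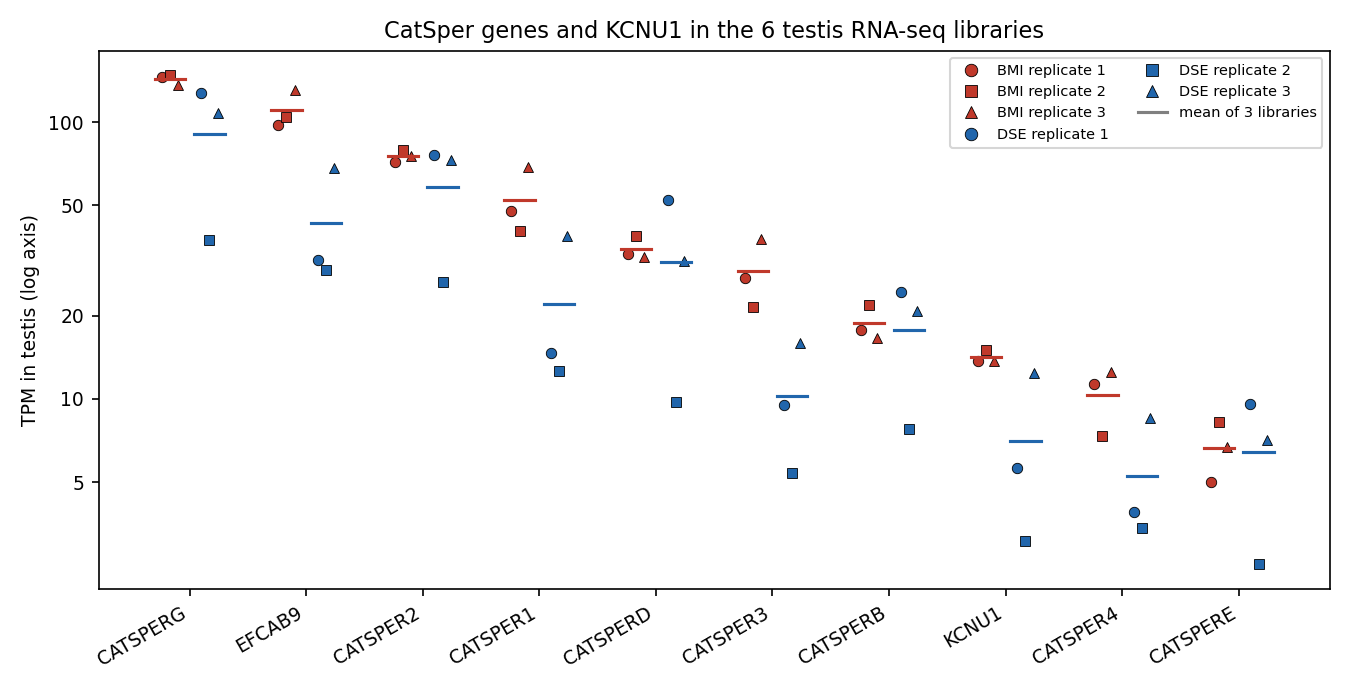
TPM of the 10 genes (log axis) in the 6 testis RNA-seq libraries, with BMI in red, DSE in blue, a symbol for each replicate number and a line at the mean of 3 libraries. CATSPERG lies highest at 37.4 to 148 TPM, CATSPERE has the lowest mean of the 6 libraries at 2.52 to 9.61 TPM, and DSE replicate 2 is the lowest library for every gene.

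The first comparison asked whether the genes were higher in testis than in the other 4 glands. With limma on log2(TPM + 1), where a call needs an adjusted p (Benjamini-Hochberg) under 0.05 and at least 1 on the log2 scale, all 10 were called higher in testis. Of all genes tested, 34.5% were called higher in testis, and the median log2 difference was 3.91 over the 10 genes and 0.31 over all 19911 genes. Size factors brought the latter to 0.12, with all 10 still called. The log2 differences were 4.85 (SE 0.19, adjusted p = 4.86e-18) for CATSPERD, 4.37 (SE 0.24) for CATSPER1, 4.23 (SE 0.20) for CATSPERG, 4.17 (SE 0.13) for CATSPERB, 3.64 (SE 0.17) for CATSPER3, 2.97 (SE 0.21) for KCNU1, 2.66 (SE 0.21) for CATSPER2, 2.48 (SE 0.15) for CATSPER4 and 1.89 (SE 0.17, adjusted p = 1.45e-10) for CATSPERE. EFCAB9 was listed at 0 in all 24 libraries of the other glands, so no fold is given. In bulk tissue, fewer cells of a type and less RNA per cell cannot be told apart. The sums depended on the Iso-seq isoforms of the merged annotation. With Ensembl transcripts alone, the TPM that Salmon gave to Iso-seq isoforms were dropped from the sums, and 5 of the 10 were called. CATSPER2 then had a log2 difference of -0.53, and CATSPERB, CATSPERD, CATSPERE and KCNU1 fell under the minimum level for the test. TPM were not estimated anew on Ensembl transcripts, so this does not show what such an annotation would give.

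Outside testis the genes fell into groups by their residual level. CATSPER2 was detected in every library, with a mean of 15.6 ± 5.74 TPM in epididymis, 9.28 ± 0.97 TPM in bulbourethral gland, 9.48 ± 2.77 TPM in prostate gland and 5.67 ± 1.57 TPM in vesicular gland (SD, n = 6 each). CATSPERG was also detected in every library, with 10.9 ± 3.36 TPM in epididymis, 5.94 ± 2.77 TPM in bulbourethral gland, 4.28 ± 1.06 TPM in prostate gland and 2.08 ± 1.27 TPM in vesicular gland. CATSPER1 was found in epididymis, at 0.442 TPM in the lowest, 3.55 in the median and 7.34 TPM in the highest library, and at no more than 0.453 TPM in any library of the accessory glands. These 3 genes were the only members above 3 TPM in any library outside testis.

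The other genes stayed below 3 TPM in every library outside testis. CATSPERB reached at most 0.124 TPM and CATSPERD at most 0.736 TPM in epididymis, and both were listed at 0 in at least 4 of 6 libraries of each accessory gland. CATSPER3 lay between 0.104 and 1.47 TPM in prostate gland and between 0.484 and 1.09 TPM in bulbourethral gland, above its 0 to 0.0811 TPM in vesicular gland. KCNU1 was listed at 0 in all 6 bulbourethral libraries and in 4 of 6 prostate libraries, and in vesicular gland it had 0.388 TPM in the lowest, 0.599 in the median and 2.81 TPM in the highest library, which was from BMI. CATSPERE lay between 0.307 and 1.93 TPM and CATSPER4 between 0 and 1.25 TPM over the 4 glands.

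**Figure D2:**
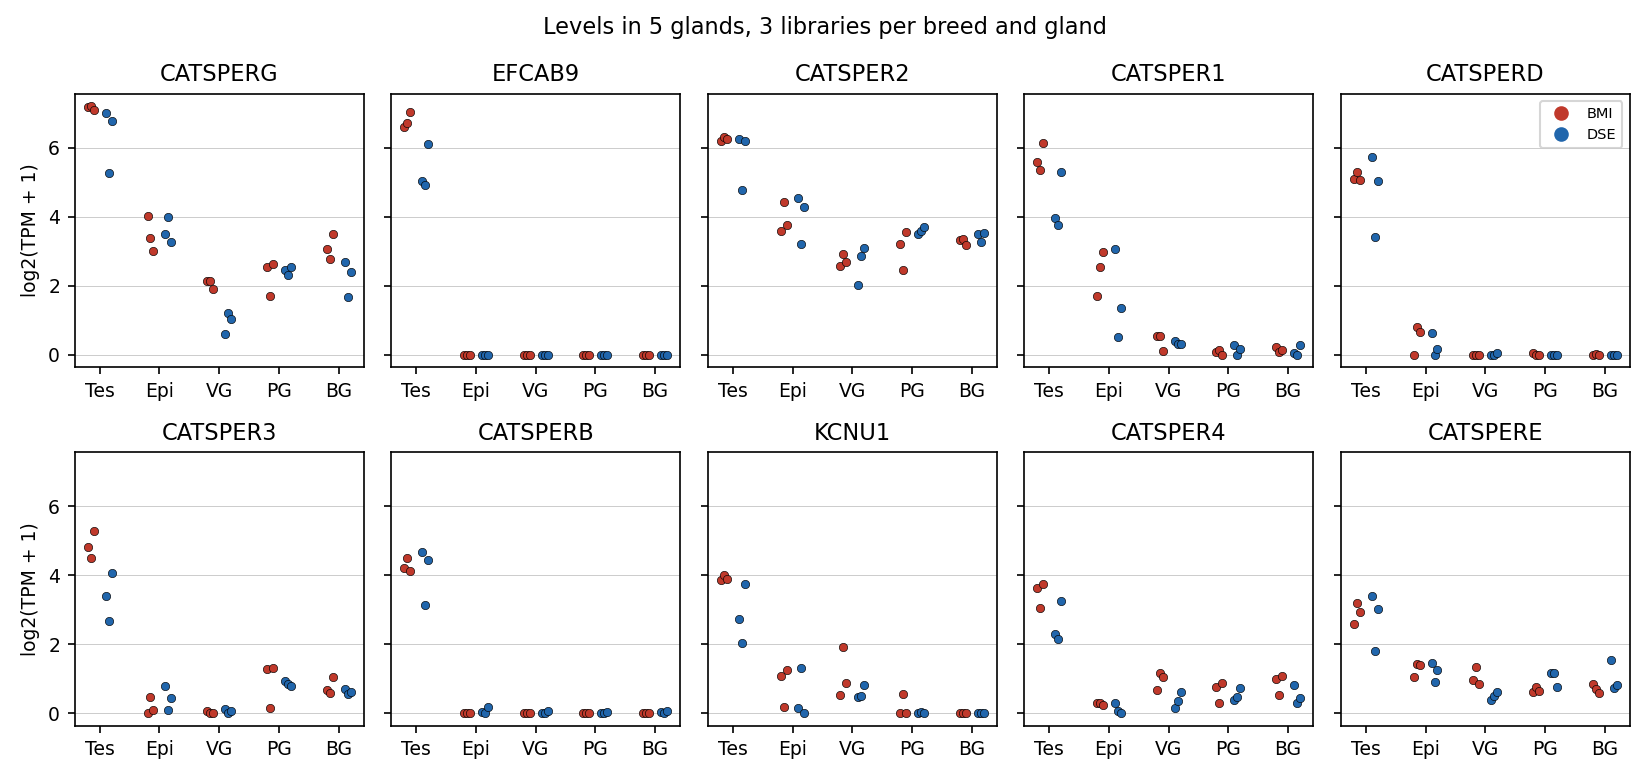
Log2(TPM + 1) of each gene in the 5 glands, 1 point per RNA-seq library, BMI in red and DSE in blue. Every gene has its highest points in testis, CATSPER2 and CATSPERG are above 0 in every library, CATSPERG down to 0.529 TPM in vesicular gland, CATSPER1 has a second group of points in epididymis, and EFCAB9 is at 0 in the 24 libraries outside testis.

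Epididymis was then compared with the 3 accessory glands in the same fit. CATSPER1 was called higher in epididymis by 1.83 on the log2 scale (SE 0.25, limma adjusted p = 1.72e-06) and CATSPERG by 1.34 (SE 0.21, adjusted p = 1.13e-05), 2 of 10 genes where 17.6% of all genes tested were called higher in epididymis and 20.1% in either direction. CATSPER2 differed by 0.84 (SE 0.21, adjusted p = 0.00177), below the minimum of 1, and reached 1.05 without DSE epididymis replicate 2. The median difference over all genes was 0.41, which size factors brought to 0.03. On that scaling CATSPER1 differed by 1.57 and was called, and CATSPERG differed by 0.86 and was not. With Ensembl transcripts alone CATSPERG was not called either, at 0.34. With a pseudocount of 0.1 in place of 1 the count rose to 5 of the 10 genes, while 6345 of all genes were called against 3997. Among the 5, CATSPER4 was lower in epididymis, at -1.44. Spermatid markers were also detected in epididymis: the summed level of 8 spermatid markers was 11.9 to 1066 TPM there, 3.44 to 19.3 TPM in the accessory glands and 25910 to 118319 TPM in testis, and its part in these levels was not tested. Without BMI epididymis replicate 2 the differences were 1.79 for CATSPER1 and 1.36 for CATSPERG, and without DSE epididymis replicate 1 they were 1.47 and 1.36, with both genes called each time.

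The transcripts behind these levels differed between testis and the other glands, as described here without a test, since they were chosen after their values were seen. In testis the CATSPER1 transcript ENSSSCT00000014164 took 88.2% of the gene's mean TPM. In epididymis 80.7 to 100% of CATSPER1 TPM, with a median of 98.7%, lay on ENSSSCT00000078183, which took 0 to 0.212% in testis. This transcript carries 114 extra bases up to the GC donor shown above and lacks a 213-base exon of the testis transcript, 2 changes that leave no remainder after division by 3. No full-length read of CATSPER1 came from outside testis, where 91 reads were found in both testis libraries together.

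CATSPERG shifted toward its 3′ part. Transcripts that begin in the 3′ part of the gene held 17.3 to 26.2% of CATSPERG TPM in testis, 63.1 to 87.9% in epididymis, 81.2 to 90.9% in bulbourethral gland, 76.1 to 89.3% in prostate gland and 77.3 to 89.5% in vesicular gland. No library of another gland overlapped with testis. The 87.9% came from DSE epididymis replicate 1, which has the lowest median transcript integrity of the RNA-seq libraries in the paper. The other epididymis libraries had 63.1 to 74.7%. The part of RNA integrity in these shares was not tested. The Iso-seq reads were split likewise, with 50 of 51 reads of upstream starts from testis and 16 of 23 reads of 3′ starts from other glands, over isoforms of the merged annotation.

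CATSPER2 ended early more often outside testis. Transcripts that stop before the usual 3′ end held 38.1 to 54.7% of CATSPER2 TPM in testis, 46.6 to 85.5% in epididymis and 55.7 to 80.1% in the accessory glands. The 46.6% was again from DSE epididymis replicate 1, and the other epididymis libraries had 61.9 to 85.5%. Iso-seq placed 16 of 17 isoforms at 3 ends, and the 20 genome bases after each are shown with A in capitals (chr1:127823272-127823291, chr1:127827020-127827039 and chr1:127828660-127828679, plus strand).
CATSPER2 after the first end: AAAAAgAAAAAAAAAAAAAA
CATSPER2 after the second end: AAAAcgtccAcAtcttccAc
CATSPER2 after the third end: cAttggtctgtctctgAgAc
Of these bases 95%, 35% and 15% are A. The first end was read 14 times, never in testis, and the third end 42 times, of which 41 in testis. The second end had 7 testis reads and 12 reads from other glands. A run of A in the genome can bind an oligo(dT) primer inside a transcript, and its part in the first end was not tested.

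**Figure D3:**
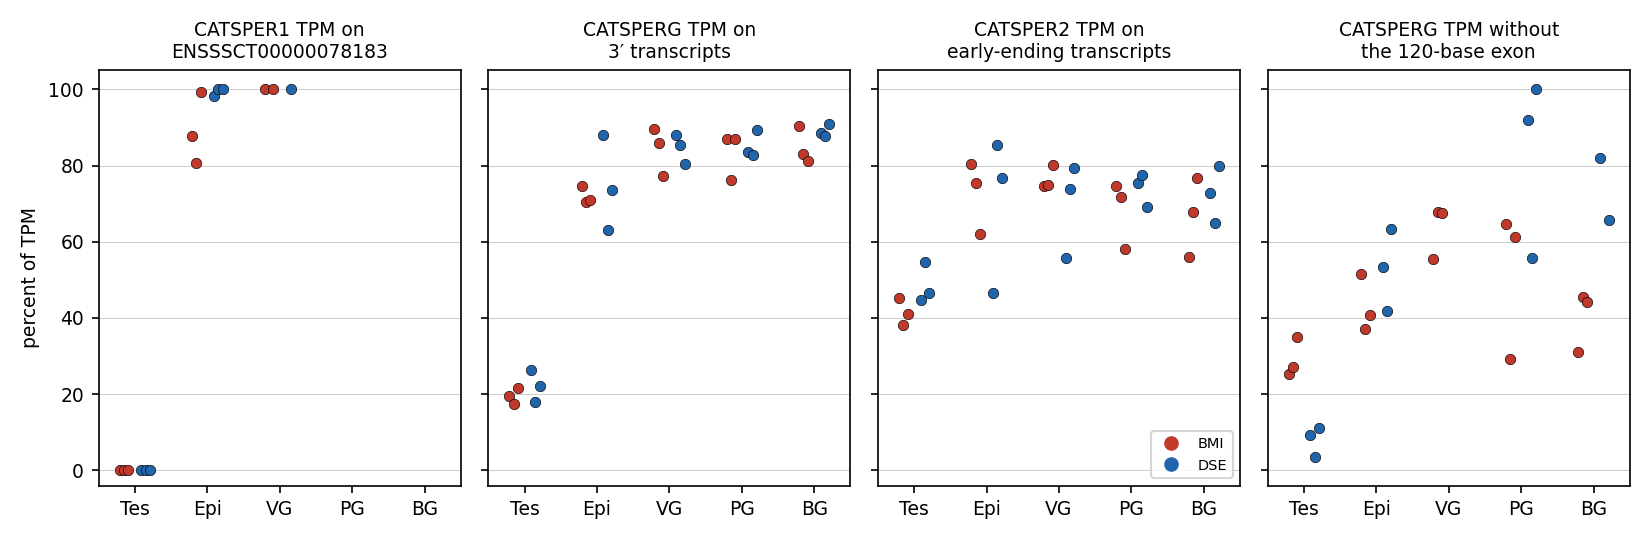
Percent of a gene's TPM on the named kind of transcript in each RNA-seq library with at least 0.3 TPM on the transcripts compared, BMI in red and DSE in blue. CATSPER1 in testis is at 0 to 0.212% and in epididymis at 80.7 to 100% on ENSSSCT00000078183, CATSPERG moves from 17.3 to 26.2% in testis to 63.1% or more elsewhere on its 3′ transcripts, and the 120-base exon of CATSPERG is left out more in BMI than in DSE in testis but not in bulbourethral gland.

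The second factor of the design was breed. None of the 10 genes was called between BMI and DSE by limma on the 6 testis libraries, and 0.621% of the 16414 genes tested were called, 102 genes. One fit of all 30 libraries, which takes the spread from every gland, called EFCAB9 (-1.44, SE 0.21, adjusted p = 4.37e-05) and CATSPER3 (-1.49, SE 0.30, adjusted p = 0.00197), with 949 genes called in all. At an unadjusted p below 0.05, 5 of the 10 genes passed, all lower in DSE, where 13.6% of all genes passed in either direction and 9.51% with DSE lower. A log2 difference of -1 or lower was estimated for 4 of the 10, where 6.07% of all genes had one. The lowest adjusted p was that of EFCAB9 (log2 difference, DSE minus BMI, -1.44, SE 0.35, adjusted p = 0.156). CATSPER3 followed at -1.49 (SE 0.39, adjusted p = 0.185), CATSPER1 at -1.35 (SE 0.43, adjusted p = 0.256), KCNU1 at -1.09 (SE 0.41, adjusted p = 0.322) and CATSPER4 at -0.91 (SE 0.36, adjusted p = 0.335). The remaining estimates were -0.83 (SE 0.44) for CATSPERG, -0.51 (SE 0.40) for CATSPER2, -0.43 (SE 0.53) for CATSPERD, -0.21 (SE 0.41) for CATSPERB and -0.17 (SE 0.42) for CATSPERE. All 10 estimates were below 0, as were 57.7% of all genes, with a median of -0.87 over the 10 genes and of -0.10 over all genes. Size factors moved the latter to 0.0014 and left all 10 estimates below 0. Of the 10 genes, 5 had all 3 BMI libraries above all 3 DSE libraries, where 17% of all genes did so: CATSPER1, CATSPER3, CATSPERG, EFCAB9 and KCNU1. In simulated data with planted differences of 1.5 and 3 on the log2 scale, the same test recovered 35% and 75% of them. There, and in the simulated transcripts below, differences were planted only above a minimum mean level. The spread was drawn separately for each gene or transcript, so a shift shared by a whole library was not simulated.

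Of 7 cell type marker lists, 4 had summed levels in testis that did not overlap between the breeds. The spermatid sum overlapped, with PRM1 as its highest gene. ODF1 (2084 to 2203 TPM in BMI and 628 to 1951 TPM in DSE) and ACRV1 did not overlap, and the other spermatid markers did. The summed spermatocyte markers were 398, 476 and 446 TPM in BMI and 294, 114 and 358 TPM in DSE, and the summed Leydig markers 21823, 18595 and 19277 TPM in BMI and 23927, 63514 and 32398 TPM in DSE. The ciliated cell markers summed to 56.7, 55.8 and 61.2 TPM in BMI and 42.0, 17.9 and 53.5 TPM in DSE, and the prostate markers to 30.9, 33.1 and 24.3 TPM in BMI and 38.8, 104 and 48.4 TPM in DSE. Spermatocyte and ciliated cell sums were thus lower and Leydig and prostate sums higher in DSE. The names are those of the lists and do not show prostate or ciliated cells in testis. The prostate sum was nearly all MSMB, with ACP3 at 0 to 0.272 TPM in testis, and MSMB had 88607 to 178304 TPM in prostate gland. Of the ciliated markers 3 of 4 were called higher in testis (34.5% of all genes), and MCIDAS had at most 0.152 TPM there. Of the Leydig markers INSL3 did not overlap between the breeds, and STAR, CYP17A1, CYP11A1 and LHCGR did. Of the 14 genes of these 4 lists that could be tested, limma called 0, where 0.621% of all genes were called, and 5 passed at an unadjusted p below 0.05, where 13.6% of all genes did. These 4 lists were picked for their sums, so the counts are a description. The part of cell composition in the breed differences was not tested. Leaving out DSE replicate 2, the library rich in Leydig and Sertoli markers, turned the estimates of CATSPERB, CATSPERD and CATSPERE to 0.26, 0.22 and 0.30 and moved CATSPER2 to -0.02 and CATSPERG to -0.29. EFCAB9, CATSPER3 and CATSPER1 stood at -1.22, -1.13 and -1.06, and KCNU1 and CATSPER4 moved to -0.68 and -0.71. Leaving out DSE replicate 3 instead gave EFCAB9 at -1.82 (SE 0.26, adjusted p = 0.0452), the only gene called among the 10 without 1 library. The DSE libraries were low in different ways. In DSE replicate 2 all 10 genes were at their lowest level, and their sum was 138 TPM against 355 to 532 TPM in the other 5. In DSE replicate 1 the ratio of EFCAB9 to CATSPERD was 0.608 against 2.16 to 4.01 in the other 5 libraries and that of KCNU1 to CATSPERB was 0.230 against 0.394 to 0.828. Spermatid markers were split in that library: PRM1 was the highest of the 6 at 71826 TPM, and ACRV1 stood at 73.3 TPM, against 72.3 TPM in DSE replicate 2 and 260 to 402 TPM in the other 4.

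**Figure D4:**
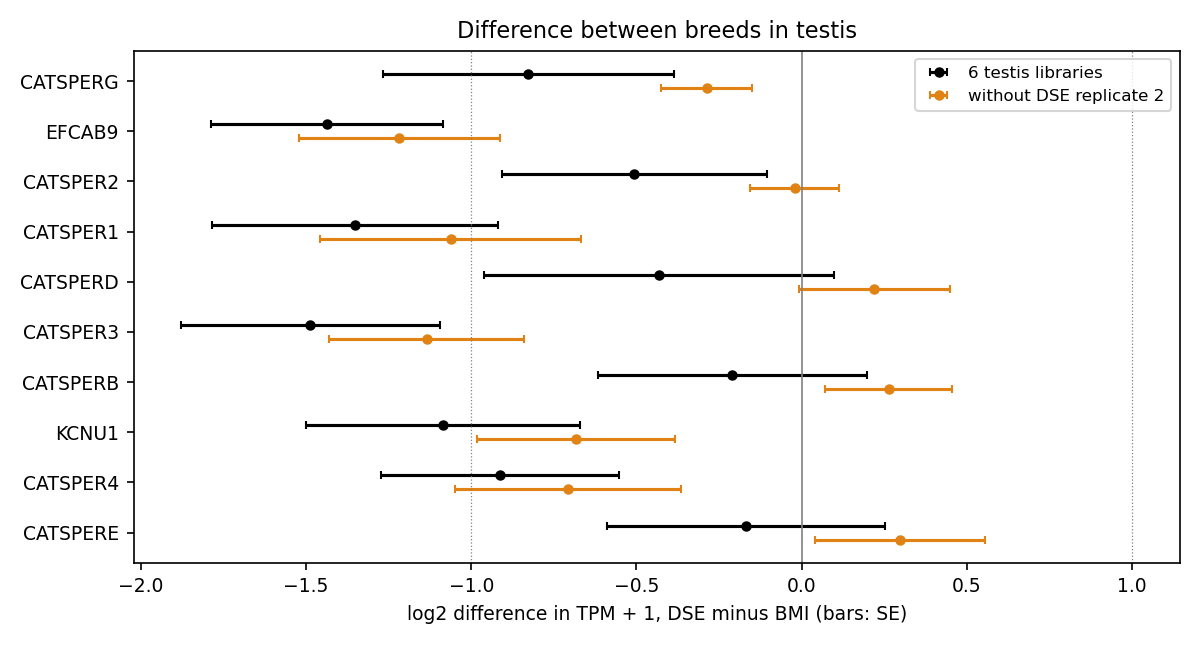
Log2 difference in TPM + 1 between breeds in testis (DSE minus BMI) for each gene, with bars of 1 SE, from all 6 libraries in black and without DSE replicate 2 in orange. Dotted lines mark a difference of 1. EFCAB9, CATSPER3 and CATSPER1 stay below -1 in both fits, and CATSPERB, CATSPERD and CATSPERE change sign.

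The Iso-seq libraries, 1 per breed and therefore without a test, also differed gene by gene. CATSPER1 had 75 reads in BMI testis (exact Poisson 95% interval 59.0 to 94.0, which covers counting error only) and 16 (9.1 to 26.0) in DSE testis. KCNU1 had 49 (36.3 to 64.8) and 10 (4.8 to 18.4) reads. CATSPERD had fewer reads in BMI, 81 (64.3 to 100.7), than in DSE, 145 (122.4 to 170.6), and CATSPERE had 4 (1.1 to 10.2) and 26 (17.0 to 38.1). CATSPERB with 58 and 75, CATSPER2 with 25 and 23, CATSPERG with 22 and 36 and CATSPER3 with 7 (2.8 to 14.4) and 1 (0.0 to 5.6) reads had overlapping intervals. EFCAB9, the second most abundant of the 10 genes in RNA-seq, had 2 reads in BMI and 0 in DSE, and CATSPER4 had 0 in both, which allows up to 3.7 reads per library. How far transcript length and library preparation moved these counts was not tested.

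**Figure D5:**
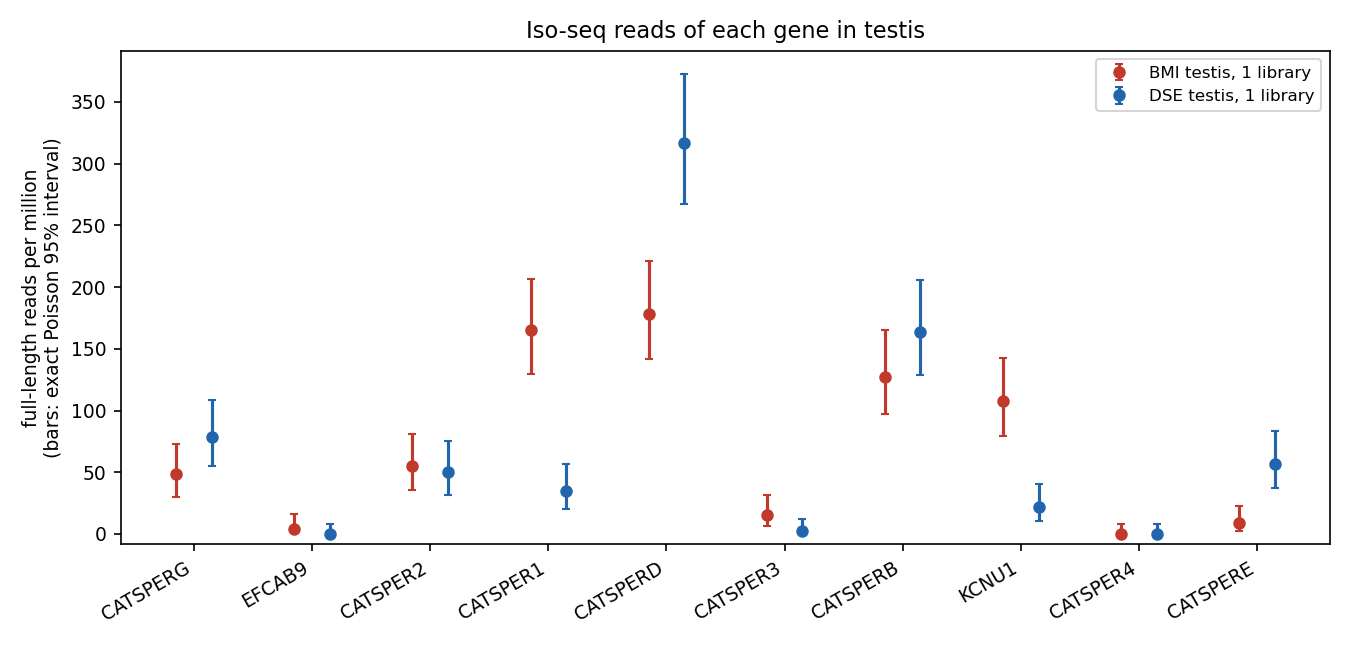
Full-length Iso-seq reads of each gene, scaled to the reads of the library (1e6 reads), BMI testis in red and DSE testis in blue, with exact Poisson 95% intervals as bars. CATSPER1 and KCNU1 are higher in BMI (165 against 35.0 and 108 against 21.8) and CATSPERD and CATSPERE higher in DSE (178 against 317 and 8.8 against 56.8).

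At the level of transcripts, 38 transcripts of the 10 genes were tested between breeds in testis and 0 were called, where 0.698% of all transcripts were. At an unadjusted p below 0.05, 11 of 38 passed, where 11.9% of all transcripts did. In simulated data the same test recovered 0 of 100 transcripts with a planted difference of 1.5 and 52 of 100 with one of 3, so 0 calls do not show that the transcripts were equal. The nearest to a call was the CATSPERG transcript ENSSSCT00000041875 (log2 difference -2.72, SE 0.51, adjusted p = 0.0814), which was called without DSE replicate 2 (-2.14, adjusted p = 0.0262). It lacks the 120-base exon shown above. Transcripts without this exon held 25.2, 27.0 and 35.1% of CATSPERG TPM at the exon in the BMI libraries and 9.37, 3.55 and 11.12% in the DSE libraries. The breeds did not overlap, and no test is given because the exon was chosen after its values were seen. Most of this TPM lay on ENSSSCT00000041875, with a testis mean of 14.6 of 19.9 TPM, and this model also lacks the 112-base exon, which every testis read over it contained. The Iso-seq reads skipped the exon in 7 of 18 cases in BMI testis (38.9%, Wilson 95% interval 20.3 to 61.4%) and in 4 of 32 in DSE testis (12.5%, 4.97 to 28.1%), with overlapping intervals. Outside testis the exon had little TPM and the breeds did not keep this order. In epididymis 37.0 to 51.5% of TPM at the exon skipped it in BMI and 41.8 to 63.2% in DSE, in bulbourethral gland 31.1 to 45.4% in BMI and 65.7 and 81.9% in 2 DSE libraries, and in prostate gland 29.3 to 64.6% in BMI and 55.9 to 100% in DSE. Its length leaves no remainder after division by 3. As an exon with these bounds it is present in 1 of 7 RefSeq transcripts.

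The Iso-seq table held 72 isoforms of 9 of the 10 genes, with 711 full-length reads, of which 655 came from testis. Only 3 isoforms matched an Ensembl transcript in full and 1 in part, 6 combined known splice sites and 62 used at least 1 splice site outside the annotation. Of 218 splice junctions in isoforms of the merged annotation, 200 had GT-AG and 7 GC-AG ends. CATSPERG had 20 isoforms and CATSPER2 17, CATSPERD had 10, CATSPERB 9, CATSPERE and KCNU1 6 each, CATSPER1 2, and CATSPER3 and EFCAB9 1 each.

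For 6 genes the transcript with the highest TPM in testis was also the isoform or match with the most full-length reads. Among them CATSPER3 had only 1 transcript and EFCAB9 only 1 Iso-seq isoform, so reads could name no other isoform there. The CATSPER1 isoform with 86 reads and the CATSPER3 isoform with 8 reads were full matches of ENSSSCT00000014164 and ENSSSCT00000032114, the Ensembl transcripts that led in TPM. PB.10672.4 of CATSPERD held 52.5% of the gene's TPM and 111 reads, PB.2352.2 of CATSPERE 78.2% and 22 reads, and PB.7207.80 of KCNU1 67.2% and 47 reads. PB.8450.113 of EFCAB9 held 60.0% of TPM with 2 reads, and ENSSSCT00000101585 held 97.7% for CATSPER4, which had no read. In the other genes both measures named different transcripts. CATSPER2 led with PB.936.166 in TPM (39.3%, 5 reads) and PB.936.160 in reads (24 reads, 15.3% of TPM), CATSPERB with PB.18255.11 (70.3%, 31 reads) and PB.18255.5 (63 reads, a full match of an Ensembl transcript). CATSPERG led with PB.15633.11 in TPM (30.7%, 2 reads) and PB.15633.7 in reads (19 reads, 8.86 TPM).

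Several exons and ends of the reads were outside the Ensembl models. The 53-base exon of CATSPERD was present in 81 of 81 BMI and 145 of 145 DSE testis reads and in 99.1 to 100% of testis TPM, absent from both Ensembl models, and present in the RefSeq transcript. The 112-base exon of CATSPERG was present in 17 of 17 and 31 of 31 testis reads and in 7 of 7 RefSeq transcripts, and absent from both Ensembl models. Short reads gave it only 59.3 to 65.1% of testis TPM, and the remaining TPM lay on those 2 models. The 100-base exon of CATSPER2 was skipped in 3 of 25 and 3 of 23 testis reads and in 36.4 to 48.6% of testis TPM. Reads and TPM thus gave unequal values for the CATSPERG and CATSPER2 exons, and nearly the same ones for the CATSPERD exon.

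The KCNU1 intron with GG-AG ends was used in 46 of 46 BMI and 9 of 9 DSE testis reads over it and in 98.8 to 100% of testis TPM. In 4 Ensembl transcripts the exon before it ends at a GC donor 21 bases upstream instead. CATSPERE began 14520 bases upstream of its Ensembl model, 18 bases from the RefSeq start, on 94.3 to 100% of its testis TPM. KCNU1 also had 1 isoform that began 484810 bases upstream of its Ensembl models, PB.7207.86, with 2 reads in BMI prostate gland and 1.14 TPM in testis, and the deposited table marks it as a predicted template switch of the reverse transcriptase. The same mark is on 4 of the 72 isoforms, the CATSPER3 isoform among them. Genes on the opposite strand of the members were not listed here. As the strand setting of the RNA-seq libraries was not given in the sources used here, reads from any gene that overlaps a member there cannot be told apart.

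Nonsense-mediated decay (NMD) removes mRNAs whose stop codon lies well before the last exon junction, and the deposited isoform table predicts it from the open reading frame. It was predicted for 11 of 72 isoforms, 15.3% (Wilson 95% interval 8.75 to 25.3%), and for 20.1% of all 110996 isoforms. Of isoforms that combine splice sites anew or use sites outside the annotation, 16.2% (11 of 68) of the members' and 25.1% of all were predicted targets. The 11 were 5 isoforms of CATSPERG, 2 each of CATSPER2 and CATSPERE, and 1 each of CATSPER1 and CATSPERB. None of CATSPERD, CATSPER3, EFCAB9 and KCNU1 was predicted. All 11 had 2 to 5 reads: the share was 10.5% among isoforms with at least 3 reads (4 of 38) and 0 of 11 among those with at least 10 reads, which allows up to 25.9%. Over all isoforms the share also fell, from 20.1% to 17.1% at 3 or more reads and 12.5% at 10 or more.

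In testis 2.44% of the full-length reads of these genes (16 of 655) and 2.24 ± 0.76% of their TPM (SD, n = 6) lay on predicted NMD isoforms, against 9.18% of all testis reads and 4.40 to 6.05% of all TPM. A retained intron was marked in all 5 of these isoforms of CATSPERG and both of CATSPER2, but also in 19 of all 20 CATSPERG and 10 of all 17 CATSPER2 isoforms. Both Ensembl models of CATSPERG hold a gap of 2 bases between exons, which no Iso-seq isoform of the merged annotation leaves out. An isoform that reads across such a gap can be marked as well, and the part of this in the mark was not tested. CATSPER1 had the highest share, 11.12 ± 3.17% of TPM (range 6.49 to 16.3%), all on PB.9892.339, which uses the early GT donor shown above. This isoform had 3 reads in BMI and 2 in DSE testis and an open reading frame of 596 codons against 721 in the full match. CATSPERG held 3.49 ± 1.41% and CATSPERE 3.27 ± 2.15% of TPM on predicted NMD isoforms.

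Of 22 other genes of the pathway that were listed, 17 were present and 16 could be tested between glands. In testis 13 of 16 were called higher, where 34.5% of all genes were. All 3 channel partners that could be tested were among them: LRRC52, the auxiliary subunit of the KCNU1 channel (log2 difference 4.53, SE 0.16), and the CatSper-associated TMEM249 (4.41, SE 0.17) and TMEM262 (4.20, SE 0.16). SLC9B2, a sodium proton exchanger, ATP2B4, a calcium pump, and KCNMA1, the relative of KCNU1 found in many tissues, were not called in testis. Between epididymis and accessory glands 3 of 16 were called, all higher in epididymis, where 17.6% of all genes were: ATP2B4 (1.70, SE 0.32), ABHD2, the progesterone-binding hydrolase (1.57, SE 0.35), and SLC9B2 (1.03, SE 0.15). Between breeds limma called 0 of 15, where 0.621% of all genes were called, and 3 of 15 passed at an unadjusted p below 0.05, where 13.6% of all genes did. TMEM249 was nearest (-1.91, SE 0.33, limma adjusted p = 0.0583), with 51.9, 43.1 and 74.3 TPM in BMI and 11.9, 10.7 and 20.8 TPM in DSE testis, without overlap. The proton channel gene HVCN1 (-1.34, adjusted p = 0.165) and TMEM262 (-1.32, adjusted p = 0.287) followed.

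The genes whose levels ran most like the mean of the 10 over the 30 libraries were TTLL13 (Pearson r = 0.996), STPG1 and STK33 (0.995 each), and CFAP58 and KIF27 (0.994 each). Of 35670 genes compared, 2648 had r above 0.95, so a like pattern was common. These correlations describe the step between testis and the other glands, which the libraries share.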

How the data were processed

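For RNA-seq the authors deposited TPM from Salmon 1.9.0, run on an annotation merged from Ensembl 107 and their Iso-seq isoforms (Sscrofa11.1). Isoforms matching an Ensembl transcript in full or in part were left out of it. For Iso-seq they deposited raw counts of full-length reads per isoform and library, made by clustering, alignment and SQANTI3 classification. The percent of A after each isoform's end was deposited as SQANTI3 computed it for the authors. The labels name rRNA depletion and the methods poly-T beads for the RNA-seq libraries. TPM were summed by gene name. Genes reaching 1 TPM in 3 or more libraries entered a fit by limma 3.58.1 (R 4.3.3) on log2(TPM + 1), with 1 mean per breed and gland and Benjamini-Hochberg adjustment over all genes tested. A log2 difference is on this scale and understates changes of low genes. The 30 libraries were fitted together for the glands and the 6 testis libraries for the breeds. The test was checked on simulated data. Sequences and RefSeq transcripts came from the Sscrofa11.1 genome and annotation of NCBI, read with pysam 0.24.0. TPM hold no counts, so no counting error was computed for RNA-seq. Shares of TPM between transcripts are Salmon's estimates. All members are named with every gland's level, with their leading transcripts by TPM and by reads, any transcript called between breeds, and the 5 genes most like their mean. Members and lists were chosen with earlier results of these data known. Alternatives were a pseudocount of 0.1, no filter or 5 TPM, size factors, no trend, Ensembl transcripts alone, sums by gene identifier, the replicate number as a block, a single fit of all glands for the breeds, higher minimum reads for isoforms, and each library left out in turn. For Ensembl transcripts alone, the same TPM were summed without the Iso-seq isoforms. Replicate numbers were not taken to pair libraries. Small RNA libraries were not used here.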

Additional observations from a re-analysis of the deposited data

How the results depend on the processing

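The calls of all 10 genes in testis held under every alternative but Ensembl transcripts alone, which gave 5 (3759 of all genes against 6877, with fewer transcripts summed) and a CATSPER2 difference of -0.53. Between epididymis and accessory glands 2 genes became 5 with a pseudocount of 0.1 (CATSPER4 at -1.44, CATSPERD at 1.56 and KCNU1 at 1.13 were added), 1 with size factors and 1 with Ensembl transcripts alone; all genes called went from 3997 to 6345 with a pseudocount of 0.1 and to 2503 with Ensembl transcripts. CATSPERB ranged from -0.0037 to 0.038 without 1 library. Between breeds in testis 0 of the 10 genes became 2 (CATSPER3 and EFCAB9) and 0 of 38 transcripts became 12 in one fit of all glands, where 949 genes and 3213 transcripts were called against 102 and 272. Genes called between breeds were 31 without a filter, 45 at 5 TPM and 13 with Ensembl transcripts; transcripts called were 135 with a pseudocount of 0.1, 82 without a filter and 72 at 5 TPM. With the replicate block 258 genes and 40 transcripts were called between breeds, and the calls of the 10 genes did not change. Same-numbered testis libraries of both breeds correlated at -0.207 to 0.124, and same-numbered libraries of different glands within a breed at -0.301 to 0.390, with 20 of 60 pairs over 0.1, all 3 DSE pairs of vesicular gland with epididymis (0.229 to 0.390) and with testis (0.151 to 0.293) among them. As not every pair was over 0.1, the numbers were not taken to pair libraries. Leaving out 1 library gave 10 to 10 members and 6694 to 6982 genes in testis, 2 to 3 members and 3745 to 4652 genes in epididymis, and 0 to 1 members, 3 to 258 genes, 0 to 1 member transcripts and 2 to 250 transcripts between breeds. Genes called between breeds were 6, 3 and 4 without BMI replicates 1, 2 and 3 and 58, 258 and 188 without DSE replicates 1, 2 and 3, and transcripts called were 2 without each BMI library in turn, 161 without DSE replicate 1 and 79 without DSE replicate 3. Without 1 testis library the breed difference ranged from -0.50 to 0.26 in CATSPERB, -0.94 to 0.22 in CATSPERD, -0.50 to 0.30 in CATSPERE, -0.93 to 0.086 in PB.10672.4, -0.45 to 0.46 in PB.18255.11, -0.85 to 0.018 in PB.2352.2 and -0.58 to 0.11 in PB.936.166, each highest without DSE replicate 2. PB.18255.11 was at 0.021 with size factors and 0.16 without BMI replicate 2. The cause of these changes was not tested. The percent of isoforms with predicted NMD was 0 at 10 or more reads and 2.44 when weighted by testis reads, and the percent of testis TPM on them was 2.04 to 2.46 without 1 library. The count of full-length reads limits the isoforms.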

Other observations

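KCNU1 was joined to a neighbouring gene by 2 fusion isoforms, which were not counted among its 6 isoforms. PB.7207.83 (21 exons, predicted NMD) had 2 reads in DSE vesicular gland, and PB.7207.87 (4 exons, noncoding) had 2 reads in BMI vesicular gland. Neither had a read in testis, where KCNU1 itself had 59 reads.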
